A study of Mus musculus with 27 samples.

Results

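Red blood cell transcripts were followed in the brain through 5 genes, the adult alpha globins Hba-a1 and Hba-a2, the adult beta globins Hbb-bs and Hbb-bt, and Alas2. They were chosen by symbol from the 26264 gene symbols of the deposited table, which spells them hba-a1, hba-a2, hbb-bs, hbb-bt and alas2, and the list was drawn up with earlier results of these libraries known. The values below therefore describe the members, and nothing is supported with them. Of the 5 genes, 1 carried a level above 0 in these libraries. That gene was Alas2, and all 4 globins were listed at 0 in every library.

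The samples were blocks of cortex from female 5xFAD mice, a transgenic line in which the neuronal Thy1 promoter drives mutated human amyloid precursor protein and presenilin and which forms amyloid plaques. All mice were 16 weeks old, and each received a stereotaxic microinjection into the cortex of 1 hemisphere. The 4 vehicle mice received the solvent, DMSO with a cyclodextrin in saline, while 5 mice received R33 and 5 received R55, both small molecules made to stabilize the retromer, at 10 mM in the injected solution. After 24 h the block around the injection and the matching contralateral block were dissected and sequenced as separate libraries, 27 in all, with both hemispheres for 13 of 14 mice. Uninjected mice were not used here. Rinsing of the blood vessels is described for the histology mice of the study and not for these mice.

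Mature red blood cells lack a nucleus, and most of their RNA is lost while they ripen. Reticulocytes, the young red cells that have just entered the blood, still hold globin messages and those of the last steps of hemoglobin production, so that blood left in a tissue brings these transcripts with it. Hemoglobin is built from alpha and beta chains, each of which holds a heme. Alas2 is the form of 5-aminolevulinate synthase made in red cell precursors, which begins heme synthesis in the mitochondrion, while Alas1 does the same work in other cells. In a bulk block of tissue, fewer cells of a type and less RNA per cell cannot be told apart.

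On GRCm39, in the GENCODE annotation, Hba-a1 lies on chromosome 11 from 32233186 to 32234504 and Hba-a2 from 32246168 to 32247320, both on the plus strand. Hbb-bt lies on chromosome 7 from 103461727 to 103465047 and Hbb-bs from 103475730 to 103482989, both on the minus strand. Alas2 lies on chromosome X from 149330371 to 149353634 on the plus strand. All are protein-coding genes.

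The genes within each globin pair are almost the same sequence. The stretches below are the last 91 bases of each coding sequence before the stop codon, in exonic sequence, shown because they hold the single base at which the coding sequences of a pair differ. The base in capitals marks that difference.
Hba-a1: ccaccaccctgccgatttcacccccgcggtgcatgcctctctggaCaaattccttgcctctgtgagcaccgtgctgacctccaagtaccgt
Hba-a2: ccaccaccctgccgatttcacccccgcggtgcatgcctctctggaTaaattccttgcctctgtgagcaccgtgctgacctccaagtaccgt
Hbb-bs: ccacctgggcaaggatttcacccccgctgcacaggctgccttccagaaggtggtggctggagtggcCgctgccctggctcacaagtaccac
Hbb-bt: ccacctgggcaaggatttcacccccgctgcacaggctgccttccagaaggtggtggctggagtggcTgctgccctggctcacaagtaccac
Counted from the first coding base, the alpha globins differ by C381T over 426 bases and the beta globins by C417T over 441 bases, an identity of 99.8% in each pair. Of all stretches of 100 bases in a reference transcript, 73.6% of those of Hba-a1 and 81.8% of those of Hba-a2 occurred unchanged in the partner gene. For Hbb-bs and Hbb-bt these shares were 58.9% and 54.7%. No such stretch of Alas2 occurred in a transcript of another gene.

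The Alas2 message carries an iron-responsive element, a short hairpin in its 5′ untranslated region. Iron regulatory proteins bind this hairpin when iron is scarce and hold back translation, so that heme production follows the iron supply. The same element stands in the messages of the ferritin chains Fth1 and Ftl1, which store iron, and of Slc40a1, ferroportin, which exports it. The hairpins are shown 5′ to 3′ with the loop in capitals.
Alas2: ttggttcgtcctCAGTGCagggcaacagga
Fth1: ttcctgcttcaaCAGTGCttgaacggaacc
Ftl1: gtcttgcttcaaCAGTGTttgaacggaaca
Slc40a1: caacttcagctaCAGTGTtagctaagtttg
In Alas2 it spans bases 84 to 113 of the reference transcript. The search asked for CAGTGN between flanks of 5 bases that pair, G with U included, and with a C just before them, on the sense strand, and 23 of 19076 5′ untranslated regions held it (0.12%), against 5287 (27.7%) that held the letters CAGTG. A match describes the letters and says nothing about iron in these mice.

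The adult globins were listed at 0 FPKM in 27 of 27 libraries, in vehicle, R33 and R55 mice and in both hemispheres alike. FPKM are fragments scaled by the length of the gene and by the total of counted fragments in the library. Hba-x and the embryonic beta globins Hbb-bh1 and Hbb-bh2 were listed at 0 throughout as well. The other embryonic or minor globins were at the edge of detection, with a mean of 0.30 FPKM for Hbq1a, 0.15 FPKM for Hbq1b and 0.07 FPKM for Hbb-y, the last with at most 5 fragments in a library. Of the 4 globins that other tissues make, 2 passed the filter of a mean of at least 1 FPKM. Cygb, cytoglobin, had a mean of 31.05 FPKM, and Ngb, the neuroglobin of nerve cells, 2.03 FPKM, while Mb, the myoglobin of muscle, at 0.31 FPKM, and Adgb, androglobin, at 0.08 FPKM, did not pass.

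A listing at 0 is not a measured absence here. In all, 4251 of 26264 symbols were at 0 in every library. They included Rpp14, a subunit of RNase P, which every cell uses, and Chtf8, a part of a clamp loader for DNA replication. Both were singled out after their values were seen. In Rpp14, 68.2% of the exonic bases also lie in an exon of another gene on the same strand, and in Chtf8 39.2%. In each of the 4 adult globins that share was 0.0%, while most of their sequence recurs in the partner gene as given above. The part of shared sequence in the listing at 0 was not tested. No level, limit or fold change is given for the globins, and none of the 4 entered a test.

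Alas2 was above 0 in 27 of 27 libraries, with a median of 1.94 FPKM, a lowest level of 1.0 and a highest of 8.17, resting on 56 to 476 fragments. Its mean level of 2.56 FPKM was above that of 16.1% of the 12976 genes that passed the filter. Its spread was wide. The SD of its log2 level around the means of the 6 groups of treatment and hemisphere was 0.50, against a median of 0.17 over all genes tested, and 97.2% of those genes had a smaller one. Its Pearson r with the library total was -0.09 over 27 libraries.

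In the injected hemisphere of the vehicle mice, Alas2 was at 1.55 FPKM in mouse J, 1.58 in M, 1.64 in L and 1.56 in AH. In their contralateral hemisphere it was at 1.10, 2.38, 1.38 and 1.94 FPKM in the same order of mice. The vehicle mice thus lay close together at the injection site and further apart on the other side.

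With R33, the injected hemisphere was at 1.40 FPKM in mouse K, 2.30 in O, 2.02 in N, 8.17 in AD and 3.64 in AE. The contralateral hemisphere was at 1.38 FPKM in K, 1.48 in O, 1.69 in N and 3.08 in AD. The injected block of AD held the highest Alas2 level of all libraries, with a 95% Poisson interval of 7.45 to 8.93 FPKM for counting error alone, and the interval of the next highest library, the contralateral block of R55 mouse AB, ran from 5.09 to 6.39 FPKM.

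With R55, the injected hemisphere was at 1.62 FPKM in mouse P, 3.83 in Q, 1.0 in R, 2.99 in AA and 4.03 in AB. The contralateral hemisphere was at 2.39, 3.92, 1.63, 3.63 and 5.71 FPKM in the same order. The R55 mice split into P and R, which lay among the vehicle mice or next to them, and Q, AA and AB, which lay above every vehicle library in both hemispheres.

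**Figure D1:**
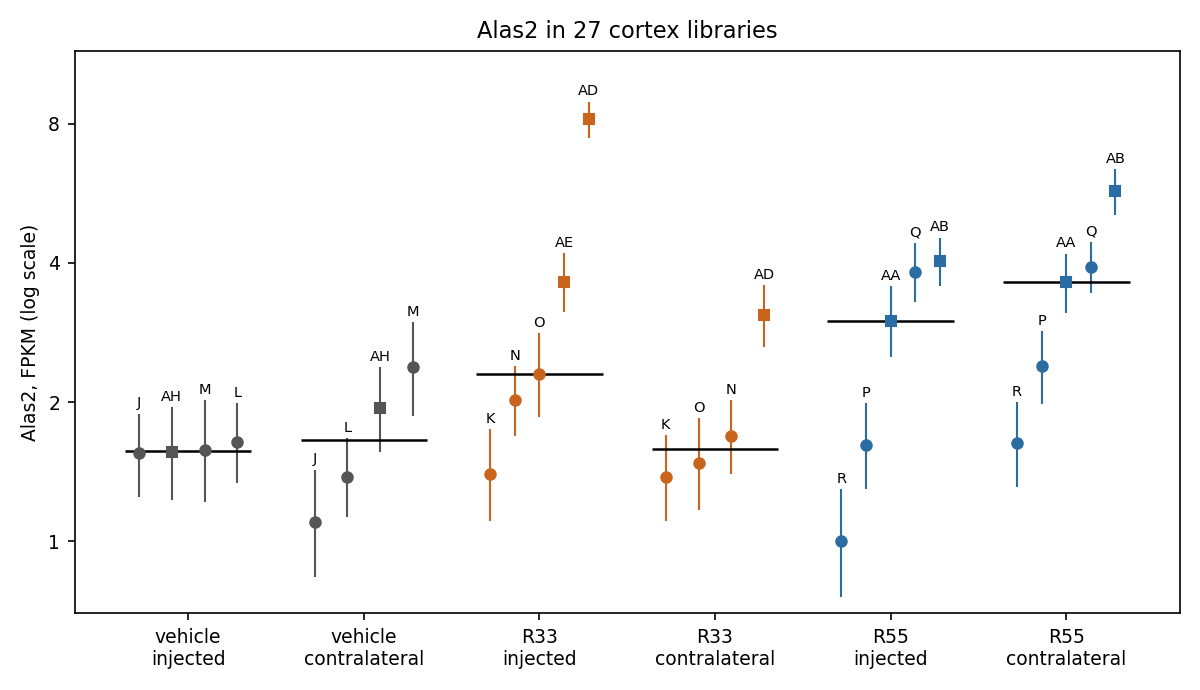
Alas2 level in FPKM (log axis) of each of the 27 libraries by treatment and hemisphere, with the mouse above each point, 95% Poisson intervals as bars, group medians as lines, circles for mice with a label of 1 letter and squares for a label of 2 letters. The injected vehicle libraries sit between 1.55 and 1.64 FPKM, while the R33 and R55 groups run up to 8.17 and 5.71 FPKM.

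The first comparison asked whether the compounds went with another level than vehicle. Averaged over the hemispheres of a mouse, Alas2 was at 1.64 ± 0.29 FPKM (SD, n = 4 mice) with vehicle, 2.88 ± 1.76 (n = 5) with R33 and 3.08 ± 1.43 (n = 5) with R55. R33 mouse AE has no contralateral library, so its value of 3.64 FPKM is that of the injected side alone. The ranges overlapped, from 1.33 to 1.98 FPKM with vehicle, 1.39 to 5.62 with R33 and 1.32 to 4.87 with R55. The highest vehicle mouse was exceeded by 2 of 5 R33 mice and 4 of 5 R55 mice, 1 of which, mouse P at 2.0 FPKM, passed it by 0.02 FPKM.

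In the limma fit over all 27 libraries, on log2(FPKM + 1), a scale that understates the change of low genes, Alas2 differed between R55 and vehicle by 0.55 ± 0.23 (SE), with an adjusted p of 0.557 and an unadjusted p of 0.0232. With 1 value per mouse, the mean of its hemispheres or for AE its injected side alone, the unadjusted p was 0.0716 (limma, adjusted p 0.918). Over the 27 libraries 0 of the 1 member tested was called, in a comparison that called 0.00771% of all genes (1 gene) and where 1096 genes had an unadjusted p under 0.05. For R33 against vehicle the difference was 0.39 ± 0.23, adjusted p 0.85, with 0% of genes called and 762 under the unadjusted threshold. R55 and R33, injected at the same concentration and taken at the same time, differed by 0.16 ± 0.22 (adjusted p 1, 0% called, 149 genes under the unadjusted threshold), with a 95% interval from -0.29 to 0.62. That interval covers no difference as well as one larger than that of R55 against vehicle. Limma voom on the recovered fragments called 1, 0 and 0 genes in the same comparisons and not Alas2, with log2 differences of 0.79, 0.55 and 0.24. Both compounds are compared with the same vehicle libraries.

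The number of letters in the mouse label, 1 in 9 mice and 2 in 5, ran with the level of Alas2. What the label marks is not stated. Alas2 had a median of 1.63 FPKM over the 18 libraries of mice with 1 letter and 3.63 FPKM over the 9 libraries with 2 letters. These medians pool the treatments, which the labels hold in unequal shares, so label and compound are mixed in them. Among mice with 1 letter it ranged from 1.33 to 1.98 FPKM with vehicle, 1.39 to 1.89 with R33 and 1.32 to 3.87 with R55 (3 mice each), and these ranges overlapped. Among mice with 2 letters it was at 1.75 FPKM in the only vehicle mouse, 3.64 and 5.62 with R33, and 3.31 and 4.87 with R55. With the label as a term of the fit, the differences from vehicle were 0.46 for R55 and 0.34 for R33. Without mouse AD the difference for R33 fell from 0.39 to 0.15.

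The second comparison was between the hemispheres of a mouse. Over 13 mice Alas2 was higher on the injected side in 6, and the mean log2 difference, injected minus contralateral, was 0.01 ± 0.44 (SD). In the fit over all libraries it was 0.05 ± 0.19 (SE, adjusted p 1, 0% of genes called by limma, 450 under an unadjusted p of 0.05, 0 called by voom). With the mouse as a block the paired difference was 0.01.

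Levels in the hemispheres of a mouse went together. Over the 13 mice the log2 levels had a Pearson r of 0.68 (permutation p 0.00985) and a Spearman rho of 0.70 (permutation p 0.0094), two-sided, with 100000 permutations each. The permutations shuffled mice across treatments and labels, so these p-values do not separate agreement within a mouse from differences between groups. Without the 2 mice farthest from the median r was 0.72, and among the 9 mice with a label of 1 letter it was 0.66. These were the only relations between mice tested, and Benjamini-Hochberg adjustment over both gives 0.00985 for each.

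The hemisphere difference was also read by treatment. It was small in R33 mouse K, at 0.01, and in R55 mouse Q, at -0.03. Alas2 was higher on the injected side in 4 of 4 R33 mice, with a mean log2 difference of 0.44 ± 0.51, in 0 of 5 R55 mice, with -0.28 ± 0.16, and in 2 of 4 vehicle mice, with -0.04 ± 0.31. The 95% Poisson intervals of a mouse's hemispheres overlapped in 2 of 4 R33 mice (K and N), 3 of 5 R55 mice (P, Q and AA) and 4 of 4 vehicle mice. Without mouse AD the R33 mean was 0.20 ± 0.20 over 3 mice. The difference between hemispheres in R55 against that in vehicle was -0.24 ± 0.45 (adjusted p 0.999) and in R33 against vehicle 0.53 ± 0.46 (adjusted p 1), each with 0% of genes called by limma and by voom and with 239 and 49 genes under an unadjusted p of 0.05. With the mouse as a replicate block these values were -0.24 (adjusted p 0.822) and 0.48 (adjusted p 1).

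**Figure D2:**
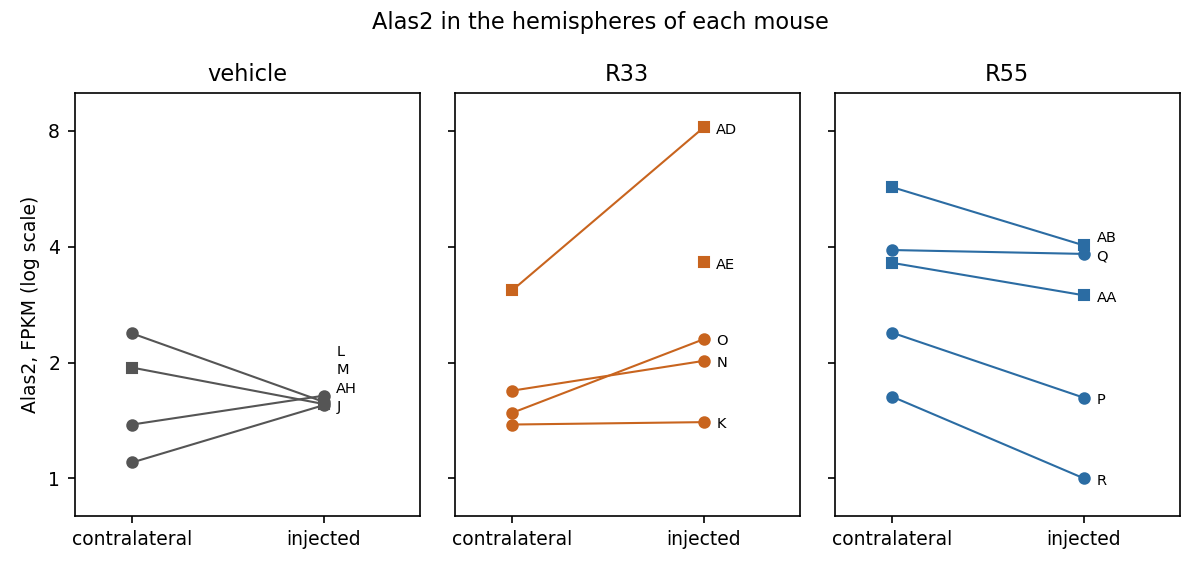
Alas2 level in FPKM (log axis) in the contralateral and the injected hemisphere of each mouse, joined by a line, for vehicle, R33 and R55; circles are mice with a label of 1 letter, squares those with 2, and mouse AE has its injected side only. Lines rise in 4 of 4 R33 mice, fall in 5 of 5 R55 mice and go both ways with vehicle.

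The other enzymes of heme synthesis were followed next, since every cell makes heme for its mitochondria. All 9 genes of the list passed the filter, and 0 of 9 were called in any of the 4 main comparisons. Alas1, the first enzyme outside red cells, was at 15.82 to 20.26 FPKM, far above Alas2 per length, and differed between R55 and vehicle by 0.02 ± 0.05 on the log2 scale. Urod, which removes carboxyl groups from the porphyrin ring, was the most abundant at a mean of 27.89 FPKM, and its highest level, 40.15 FPKM, was in the injected block of mouse AD. Fech, which inserts the iron, had a mean of 23.14 FPKM and a difference of 0.03 ± 0.04. The median log2 difference of the list was 0.03 for R55 against vehicle and 0.06 for R33 against vehicle, beside 0.03 and 0.02 over all genes. Alas2 thus had the largest value of the 9 in both, with the widest error.

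**Figure D3:**
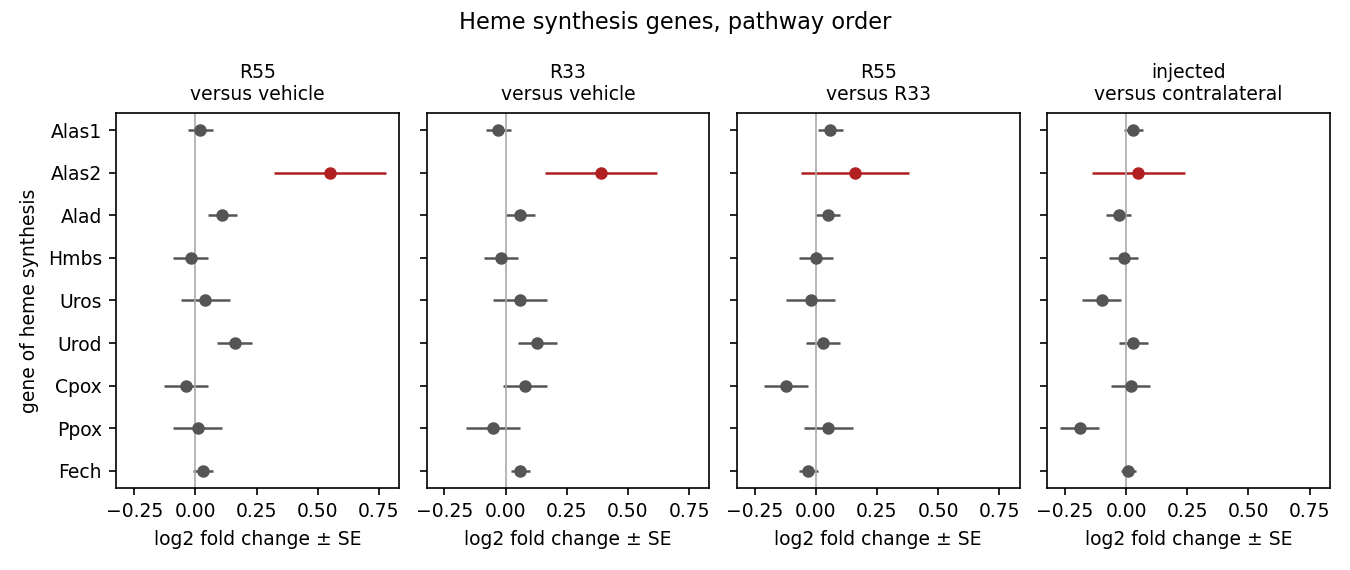
Log2 fold change with its SE for the 9 heme synthesis genes in pathway order, in 4 comparisons, with Alas2 in red. Alas2 stands at 0.55 and 0.39 against vehicle, while the other 8 genes stay within 0.2 of 0.

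Genes of the red cell membrane and of reticulocytes were mostly low. Of 32 such genes 13 passed the filter, and 0 of these were called in any main comparison, with median log2 differences of 0.07 for R55 and 0.06 for R33 over vehicle, -0.03 for R55 over R33 and 0.02 for the injected over the contralateral side. Among the most abundant were Car2, a carbonic anhydrase of oligodendrocytes as well as red cells (110.95 FPKM), and Bpgm, which makes the regulator of oxygen binding 2,3-bisphosphoglycerate (45.16 FPKM). Brain cells also express these genes.

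Several genes of red cells and their precursors, named here after their values were seen, were close to 0. Slc4a1, the anion exchanger band 3, reached at most 0.18 FPKM (22 fragments), Ahsp, which holds free alpha globin, 0.28 FPKM (4 fragments, with 16 libraries at 0), and Klf1, a factor that drives globin genes, 0.19 FPKM (7 fragments). Rhag, of the Rhesus complex, was at 0 in 25 libraries and Gata1, the master factor of red cell precursors, in 25. Others of the list were higher, also named after their values were seen. Epor, the erythropoietin receptor, had a mean of 3.91 FPKM, Gypc, of the red cell membrane, of 0.85 FPKM with a highest level of 2.02 in the injected block of AD, and Tal1, a factor of blood cell precursors, of 0.79 FPKM with a highest level of 4.43. The mean of Alas2, 2.56 FPKM, compares per length with means of 0.06 FPKM for Slc4a1 and 0.06 for Ahsp. Summed over the 19 genes of the list under the filter, a trim made after seeing their levels, the level ran from 1.43 to 3.06 FPKM in vehicle libraries, 1.56 to 5.79 with R33 and 1.64 to 3.38 with R55. These ranges overlapped. Its highest value was in the injected block of R33 mouse O, where Alas2 was at 2.30 FPKM and where Tal1 alone made up 4.43 of 5.79 FPKM, and the next, 4.08, in that of AD. Tal1 was then left out, a choice made after seeing the data. The sums without it ran from 0.99 to 1.60 FPKM with vehicle, 1.13 to 3.40 with R33 and 0.89 to 2.65 with R55. The 3.40 FPKM was in the injected block of AD, where Gypc alone made up 2.02 FPKM.

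Proteins that clear free hemoglobin and heme were read from 12 genes, 8 of which passed the filter, with 0 called and medians of 0.13, 0.10, 0.03 and 0.02 in the same order of comparisons. Slc48a1, which carries heme out of lysosomes, had a mean of 71.34 FPKM, Lrp1, the receptor that takes up heme bound to hemopexin, 27.25 and Hmox2, the constant heme oxygenase, 24.07. Lrp1 differed between R55 and vehicle by -0.47 ± 0.12, with an adjusted p of 0.235. Hmox1, the inducible heme oxygenase and named here after its values were seen, ranged from 3.68 to 64.38 FPKM with its highest level in the injected block of AD, and differed between the injected and the contralateral side by 0.90 ± 0.34 (adjusted p 1). Hp, haptoglobin, Hpx, hemopexin, and Cd163, the scavenger receptor for hemoglobin, stayed under the filter with means of 0.30, 0.34 and 0.19 FPKM.

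Iron storage and transport were read from 12 genes. The hormone gene Hamp was listed at 0 throughout, and 11 passed the filter with 0 called and medians of 0.06, 0.08, 0.00 and 0.04. Fth1 had a mean of 1902.57 FPKM and Ftl1 of 244.89 FPKM, and Trf, transferrin, which oligodendrocytes make in brain, of 176.77 FPKM. Fth1 and Ftl1, which share the hairpin with Alas2 as printed above, differed between R55 and vehicle by 0.11 ± 0.15 and 0.23 ± 0.17, and Slc40a1, the other message with it, by 0.03 ± 0.11.

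The genes most like Alas2 across the 27 libraries included genes of the meninges and of connective tissue. By Pearson correlation of log2 levels the first 10 were Osr1 (0.87), Aebp1 (0.87), Gpr182 (0.85), Fam180a (0.85), Emp3 (0.84), Islr (0.84), Bgn (0.83), Slc22a6 (0.83), Colec12 (0.83) and Gjb2 (0.83). Bgn, biglycan, is a proteoglycan of the extracellular matrix, Slc22a6 an organic anion transporter found in the meninges, and Gjb2 a gap junction protein that joins meningeal cells. Over the 14 mice their r ran from 0.87 to 0.92, without the 2 libraries farthest from the median from 0.74 to 0.84, and over the 18 libraries of mice with a label of 1 letter from 0.56 to 0.76. The injected block of AD held the highest level of all 10.

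Among the most opposite genes were Cacna2d1 (-0.81), a calcium channel subunit, Lrp8 (-0.81), a receptor for reelin, Ranbp2 (-0.79), of the nuclear pore, and Cpeb4 (-0.78), which binds messages. These values describe 27 libraries that share mice, with 12975 genes compared and no p-value given.

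By list, the genes of meninges and fibroblasts had a median r of 0.79 with Alas2 over the 9 that passed the filter, beside 0.07 over all genes, and 8 of the 9 had an r over 0.5, as did 13.2% of all genes. The exception was Pdgfra, which oligodendrocyte precursors also express, at -0.18. The other 2 most abundant of the list were Igf2, a growth factor, at 0.50 and Dcn, decorin, at 0.56. Pf4, platelet factor 4, which macrophages of the brain's borders also express, had an r of 0.79, and Gp1bb, part of the platelet receptor for von Willebrand factor, 0.23, while Itga2b, the platelet integrin, stayed under the filter. Of the neutrophil and monocyte genes 4 of 18 passed, with a median of 0.54. S100a9, which neutrophils hold in quantity, had an r of 0.61, Lcn2, lipocalin-2, 0.49 and Csf3r, the receptor for granulocyte colony-stimulating factor, -0.01. The red cell list had a median of 0.19 over the 13 of its 32 genes that passed the filter. Its low genes do not enter this median. The heme synthesis list without Alas2 had a median of 0.12, close to all genes, with Urod at 0.76.

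The 18 genes of brain endothelium had a median r of -0.53. Over the 18 libraries of mice with a label of 1 letter this median was 0.22, the opposite sign. The summed level of these genes ran from 149 to 192 FPKM in the 9 libraries with 2 letters and from 182 to 406 FPKM in the others. The meningeal median stayed above 0 in those 18 libraries, at 0.55, and that of neutrophils and monocytes was 0.19.

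**Figure D4:**
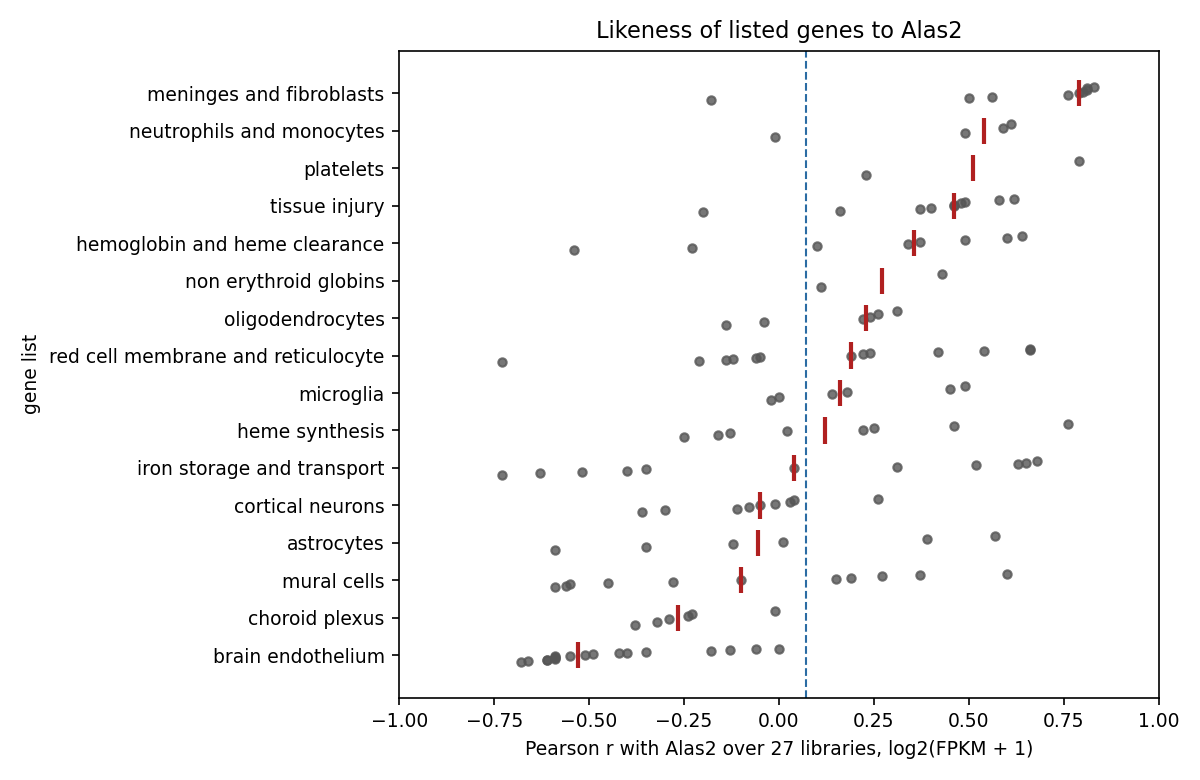
Pearson r with Alas2 over the 27 libraries, in log2(FPKM + 1), for each gene that passed the filter (points), by gene list, with list medians as red bars and the median of all tested genes, 0.07, as a dashed line. Genes of meninges and fibroblasts lie furthest to the right with a median of 0.79, and those of brain endothelium furthest to the left with -0.53.

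The summed level of the list of meninges and fibroblasts is set beside Alas2 by library. All 10 of its genes were above 0 in every library, and their summed level ran from 21.0 to 79.2 FPKM with vehicle, 29.2 to 104 with R33 and 17.9 to 91.8 with R55. The highest sum was in the injected block of AD and the lowest in that of R55 mouse R, the libraries with the highest and the lowest Alas2. Vehicle mouse J went the other way, with a contralateral sum of 79.2 FPKM and Alas2 at 1.10 FPKM. The r of this sum with Alas2 was 0.68 over 27 libraries and 0.31 over the 18 with a label of 1 letter. That of the 19 low red cell genes was 0.50 and 0.36, or 0.81 and 0.61 without Tal1, left out after seeing the data. Gypc weighed heavily in the sum without Tal1, as given above, and the r without Gypc was not computed. In the comparisons, the list had a median log2 difference of 0.42 for R55 over vehicle, with 8 of 9 genes above 0, and of 0.17 for R33 over vehicle, with 8 of 9, beside 0.55 and 0.39 for Alas2 and 0.03 and 0.02 over all genes. For the difference between hemispheres the medians were -0.31 in R55 and 0.20 in R33 against vehicle, beside -0.24 and 0.53 for Alas2. None of the 9 genes was called by limma in these comparisons, and 2 had an unadjusted p under 0.05 for R55 over vehicle. This list had the highest median r with Alas2 in these same libraries, so its medians are not independent of that likeness. Other lists also had medians above those of all genes for R55 and R33 over vehicle. They were 0.36 and 0.13 for platelets (2 genes), 0.35 and 0.22 for neutrophils and monocytes (4) and 0.33 and 0.18 for tissue injury (10). Brain endothelium had -0.09 and -0.11, and choroid plexus -0.33 and 0.68. The part of meningeal tissue in the level of Alas2 was not tested.

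**Figure D5:**
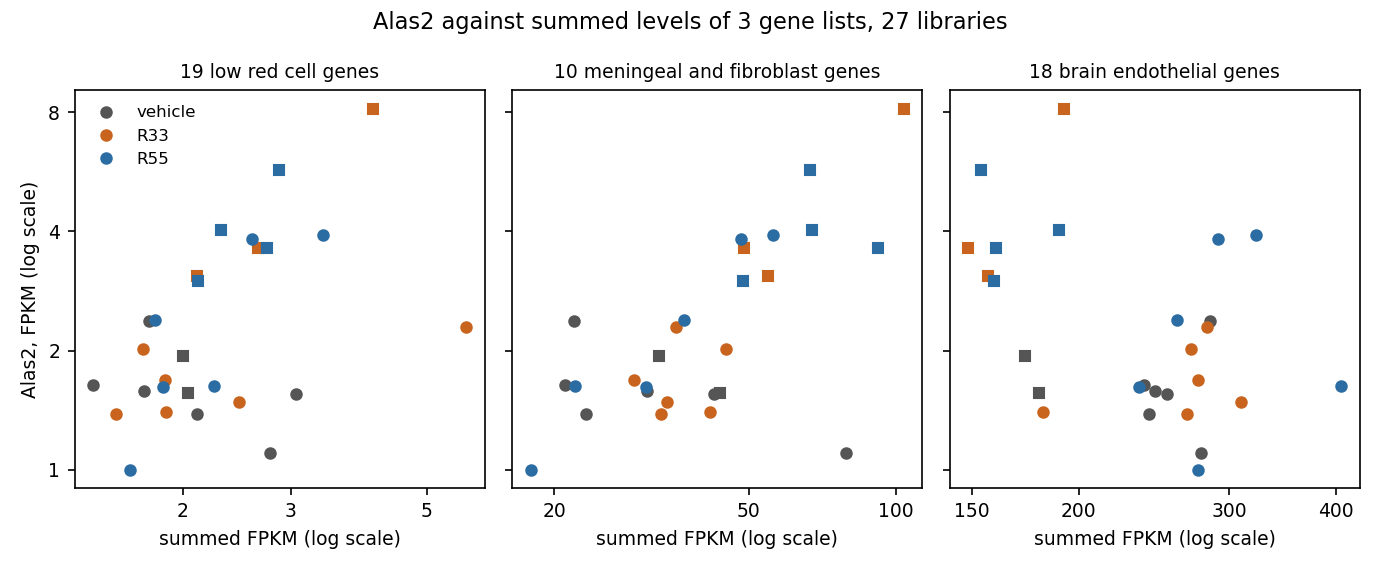
Alas2 level against the summed FPKM of 19 red cell genes under the filter, 10 meningeal and fibroblast genes and 18 brain endothelial genes in 27 libraries, both axes logarithmic, coloured by treatment, with circles for mouse labels of 1 letter and squares for 2. Alas2 is highest, 8.17 FPKM, where the meningeal sum is highest, 104 FPKM, and the squares lie at the left of the endothelial panel, beside 1 circle at 182 FPKM.

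Depth was between 15932198 and 38077032 counted fragments a library, with a median of 27441311. All 9 genes of the cortical neuron list passed the filter, as did all 6 each of astrocytes, oligodendrocytes and microglia. Over the 19 lists read, 0 genes were called by limma in any of the 4 main comparisons.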

How the data were processed

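The authors extracted RNA from the cortex blocks, prepared stranded mRNA libraries, sequenced them on a NextSeq 2000 and aligned reads to GRCm39 with HISAT2; the counting tool and its annotation are not given in the sources used here. They deposited FPKM, scaled by the total of counted fragments, in a table of 32 libraries, of which 5 were not used here. After 32 leftover header lines were dropped, whole fragments were recovered for 100.0% of rows with a value, within a tolerance of 0.01.

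The members and gene lists were chosen with earlier results of these data known. The 12976 genes whose mean reached 1 FPKM were tested on log2(FPKM + 1) with limma 3.58.1 in R 4.3.3, with treatment and hemisphere as additive factors, an intensity trend and Benjamini-Hochberg adjustment over all genes, called under 0.05. Libraries of a mouse counted as separate in this fit. Of the 5 members, 1 passed the filter. Since the adult globins were all at 0, their median of log2 differences is that of Alas2 alone, and Alas2 replaced the globin mean in the search for like genes, a change made after the values were seen. Named genes are the members, up to 3 of each list with the highest mean, and the 10 most like and 5 most unlike Alas2; others are marked, and some genes that this rule names are not reported here. Hemispheres share a mouse: deviations from group means correlated by -0.079 to 0.648 in 13 pairs, 0.394 on average. Poisson intervals cover counting error only. Sequences and positions come from GENCODE release M39 on GRCm39, the authors' build. The fit was tried on simulated data of independent libraries, with changes planted only in genes more abundant than Alas2. No effect of mouse or label was simulated, so this says nothing about the fit for Alas2. Tables and figures were made in Python 3.11.15 (scipy 1.17.1, numpy 2.4.6).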

Additional observations from a re-analysis of the deposited data

Results flagged for a closer look

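In R33 mice Alas2 was higher on the injected side in 4 of 4, and in R55 mice on the contralateral side in 5 of 5, so that the mean log2 difference between hemispheres was 0.72 higher in R33 than in R55. The log2 difference was only 0.01 in R33 mouse K and -0.03 in R55 mouse Q. The 95% Poisson intervals of the hemispheres overlapped in 2 of 4 R33 mice and 3 of 5 R55 mice. The comparison of R55 with R33 was added after the pattern was seen, so its p-values are no independent test of it. In the limma fit over all libraries the difference, R55 minus R33, was -0.78 ± 0.43 (SE, adjusted p 0.875, unadjusted p 0.0857), and with the mouse as a replicate block it was -0.72 (adjusted p 0.377, unadjusted p 0.00386). In the limma fit without the replicate block, it was -0.48 (adjusted p 0.999) once the injected library of mouse AD was left out. The fit with the replicate block was not run without that library.

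On the FPKM scale, the injected block of mouse AD stood apart from the other 4 injected R33 libraries in 2 sums. The gaps below were taken on FPKM and not on the log2 levels used in the fits, and gaps on the log2 scale are not given. The summed level of the 10 meningeal and fibroblast genes was 103.78 FPKM there and 49.03 FPKM in the next library, a gap of 0.801 of the group's range where 0.71 is the limit for 5 samples. The summed level of the 18 neutrophil and monocyte genes was 48.11 FPKM against 19.38 FPKM, a gap of 0.714 of the range. Of 30 groups examined 2 passed the limit, the second of them narrowly. If values follow a normal distribution, chance alone passes about 1 in 20. Alas2 itself did not pass it in any group.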

How the results depend on the processing

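Over 27 alternatives for each treatment comparison and 23 for the others, Alas2 was called in none by limma, with adjusted p-values of at least 0.216 for R55 against vehicle, 0.608 for R33 against vehicle, 0.482 for R55 against R33 and 0.933 for the hemispheres. The difference of R55 from vehicle stayed above 0 in 27 of 27, from 0.40 without mouse AB to 0.79 with voom, and that of R33 in 27 of 27, from 0.10 in the contralateral hemisphere alone to 0.63 in the injected hemisphere alone. R55 against R33 was -0.20 in the injected hemisphere alone and 0.58 in the contralateral alone. With a mouse left out the ranges were 0.40 to 0.74 for R55 against vehicle, 0.15 to 0.54 for R33 against vehicle, 0.02 to 0.40 for R55 against R33 and -0.03 to 0.08 for the hemispheres. With the mouse as a replicate block the values were 0.55, 0.40, 0.15 and 0.01, and the block changed no call of a member. Without the injected block of AD, an alternative added after seeing the data, R33 against vehicle was 0.21. Summing each globin pair gave no value beyond 0. Over all genes, R55 against vehicle called 1 gene and between 0 and 50 in the alternatives, with 50 without mouse AD, 19 without its injected block and 12 with only the treatments compared in the fit; R33 against vehicle reached at most 1 and R55 against R33 at most 2. In the library with the fewest Alas2 fragments, 56, counting error alone spanned 0.76 to 1.30 FPKM.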
